A study of Mus musculus with 4 samples.

Results

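The set described here holds 10 of the 18276 genes measured in mouse osteoclast progenitors: the nuclear receptor gene Pparg and its relative Ppard, their dimer partner Rxra, the C/EBP transcription factor genes Cebpa, Cebpb and Cebpd, the co-activator gene Ppargc1b, and Cd36, Acsl1 and Plin2, which handle fatty acids and are classic PPAR targets. The genes were listed by symbol and matched by Ensembl identifier, and all 10 were found. The progenitors were sorted from fresh bone marrow as CD115-positive cells that lacked B220, CD3 and Mac-1. In 2 libraries (Ptip_KO) the mice carried Ptip flox/flox and Mx-1Cre, and in 2 libraries (WT) they carried Mx-1Cre with wild-type Ptip. All mice were of the B6;129 strain. Both groups carry the Cre driver, which is interferon-inducible and active in many blood and non-blood cells. Ages, inducing agent and pooling of animals are not given in the sources used here. PTIP, encoded by Paxip1, is a subunit of the MLL3 and MLL4 histone H3K4 methyltransferase complexes.

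PPAR gamma is a nuclear receptor that binds DNA as a dimer with a retinoid X receptor and is switched on by fatty acids and their oxidised products. In fat cells, C/EBP beta and C/EBP delta come first and C/EBP alpha and PPAR gamma follow and sustain each other, and mouse fat cell precursors need PTIP to express Pparg and Cebpa. In the osteoclast lineage of mice, PPAR gamma promotes differentiation, with PGC-1 beta, the product of Ppargc1b, as its co-activator, while C/EBP alpha and C/EBP beta also direct the formation of monocytes and granulocytes.

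In Ptip_KO progenitors, 4 of the 10 genes fell past the test, against 3.86% of all tested genes: Cebpb, Acsl1, Plin2 and Cd36. The 10 genes were chosen with earlier results of these data known, so this contrast describes the set and does not test it. The mean level in Ptip_KO divided by that in WT was 0.489 for Cebpb, 0.597 for Acsl1, 0.607 for Plin2 and 0.317 for Cd36. Pparg itself lay lower in both Ptip_KO libraries, but its difference missed the threshold. Ppard, Rxra, Cebpa, Cebpd and Ppargc1b did not pass.

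The start regions of the members that the comparison turns on are shown first, since PPAR and C/EBP factors act by binding short DNA elements. Each is the strand of the gene, 5′ to 3′, with 250 bases before and 50 bases after an annotated start, from RefSeq on GRCm38.p6, the assembly of mm10. Capitals mark matches, on either strand, to the elements searched: AGGTCANAGGTCA, the PPAR response element, with up to 2 mismatches; its half-site AGGTCA; the C/EBP octamer of TTGC, any pair of bases and AA; CCAAT; and TATAAA. The half-site lies within the response element, so these matches can overlap.
Acsl1 first start, chr8:46470787-46471086, plus strand: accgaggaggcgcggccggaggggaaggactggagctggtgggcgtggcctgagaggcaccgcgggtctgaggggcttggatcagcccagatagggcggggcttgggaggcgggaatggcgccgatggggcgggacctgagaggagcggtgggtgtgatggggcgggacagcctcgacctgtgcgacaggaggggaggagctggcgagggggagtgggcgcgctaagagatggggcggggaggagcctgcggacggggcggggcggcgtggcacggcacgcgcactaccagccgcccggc
Acsl1 downstream start, chr8:46490716-46491015, plus strand: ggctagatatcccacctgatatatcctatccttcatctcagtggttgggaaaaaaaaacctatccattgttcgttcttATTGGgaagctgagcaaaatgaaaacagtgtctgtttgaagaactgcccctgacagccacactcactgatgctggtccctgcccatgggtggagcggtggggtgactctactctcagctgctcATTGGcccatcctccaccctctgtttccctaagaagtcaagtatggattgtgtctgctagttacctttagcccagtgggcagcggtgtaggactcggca
Plin2, chr4:86670010-86670309, minus strand: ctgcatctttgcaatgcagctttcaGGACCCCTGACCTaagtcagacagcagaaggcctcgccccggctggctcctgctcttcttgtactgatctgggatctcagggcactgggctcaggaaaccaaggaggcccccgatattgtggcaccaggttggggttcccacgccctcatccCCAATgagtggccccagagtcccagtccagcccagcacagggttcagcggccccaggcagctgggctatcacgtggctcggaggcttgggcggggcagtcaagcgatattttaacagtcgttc
Cd36, chr5:17835847-17836146, minus strand: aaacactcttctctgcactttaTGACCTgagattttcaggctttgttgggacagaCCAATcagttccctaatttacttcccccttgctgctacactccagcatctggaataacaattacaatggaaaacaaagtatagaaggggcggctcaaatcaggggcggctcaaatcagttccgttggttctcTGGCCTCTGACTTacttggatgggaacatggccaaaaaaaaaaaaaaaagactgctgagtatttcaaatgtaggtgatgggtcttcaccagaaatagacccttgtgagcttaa
Cebpb, chr2:167688665-167688964, plus strand: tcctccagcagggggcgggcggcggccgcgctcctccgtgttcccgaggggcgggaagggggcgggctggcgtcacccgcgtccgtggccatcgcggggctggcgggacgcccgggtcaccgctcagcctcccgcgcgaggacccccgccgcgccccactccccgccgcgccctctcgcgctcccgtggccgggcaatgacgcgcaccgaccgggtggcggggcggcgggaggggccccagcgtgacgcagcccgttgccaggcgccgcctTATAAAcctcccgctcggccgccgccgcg
Pparg first start, chr6:115360894-115361193, plus strand: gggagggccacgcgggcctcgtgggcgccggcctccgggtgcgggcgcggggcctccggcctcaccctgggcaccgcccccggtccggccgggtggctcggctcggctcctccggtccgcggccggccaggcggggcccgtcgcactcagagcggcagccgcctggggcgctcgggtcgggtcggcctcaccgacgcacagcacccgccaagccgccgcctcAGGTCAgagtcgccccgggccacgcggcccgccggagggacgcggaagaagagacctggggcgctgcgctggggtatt
Pparg downstream start, chr6:115421816-115422115, plus strand: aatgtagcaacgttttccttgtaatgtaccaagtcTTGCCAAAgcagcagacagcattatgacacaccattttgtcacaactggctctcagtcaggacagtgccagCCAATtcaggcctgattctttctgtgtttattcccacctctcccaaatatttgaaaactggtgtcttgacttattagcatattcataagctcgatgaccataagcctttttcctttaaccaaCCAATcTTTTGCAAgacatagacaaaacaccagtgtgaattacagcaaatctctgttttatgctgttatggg

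Plin2 held a response element with 2 mismatches from base 26 of its window and Cd36 held one from base 188, both on the strand opposite to the gene. Of 32851 promoter windows in the table, 3.86% held a match with up to 2 mismatches. So did 3 of the 12 windows of the members, the other being a second start of Rxra. An exact match was in 0.0396% of all windows and in 0 of the 12. The half-site was in 5 of the 12 windows, against 16.3% of all windows. Acsl1, also called lower, held no response element, half-site or C/EBP octamer in either window, and its downstream window held CCAAT on the opposite strand from bases 79 and 202. Pparg has a further window, not shown, 1.2 kb after the first start, with AGGTCA from base 242. That window also has CCAAT from base 168 and TATAAA from base 222, both on the opposite strand. Both windows of Pparg shown above hold a half-site or C/EBP octamers: the first has AGGTCA from base 223, and the downstream one, 60.9 kb downstream, has the C/EBP octamer from bases 36 and 235. That octamer was in 1 of the 12 windows of the members, against 10.8% of all windows, and CCAAT was in 6, against 37.4%. The window of Cebpb held TATAAA from base 272, a motif of 13.6% of all windows and of 3 of the 12. Windows were found for 8 of the 10 members, and Cebpd and Ppargc1b had none. These letters describe the windows, and binding was not measured.

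The table held 67592972 to 77773478 reads per library, recovered from the deposited values, which are reads scaled by library (CPM) with sums that differ between libraries. A gene with 0 reads could have up to 3 by counting error alone, which corresponds to 0.0380 to 0.0428 CPM. The deleted gene Paxip1 had 5.10 and 3.73 CPM in Ptip_KO libraries, against 106 and 103 CPM in WT libraries. Csf1r, which encodes CD115, was at 825 and 782 CPM in Ptip_KO, against at 677 and 606 CPM in WT, while Cd3e stayed at or under 0.190 CPM in every library. Itgam, which encodes the Mac-1 chain absent from the sorted surface, was still at 39.2 and 35.1 CPM in Ptip_KO, against 42.1 and 39.6 CPM in WT. One WT library stands apart: WT replicate 2 had 298 CPM of Xist and 0.101 CPM of the Y-linked Ddx3y, whereas elsewhere Xist ran between 0.0428 and 0.0814 CPM and Ddx3y between 69.1 and 89.6 CPM, and its omission was tried. Without it all 4 called members, and all 25 other genes named by rule that limma called, kept their direction. The log2 fold change was then −1.04 for Cebpb, −0.71 for Acsl1, −0.71 for Plin2 and −1.03 for Cd36. The variance then rests on the Ptip_KO libraries alone, so calls in that fit are not a strict check. The uncalled Ppard, Cebpd and Ppargc1b then had log2 fold changes of −0.27, −0.35 and −0.036 (adjusted p between 0.0730 and 0.919). The Xist and Ddx3y levels are those of female cells in WT replicate 2 and of male cells in the other libraries. The WT libraries thus came from different animals, and sex differs within WT. No label says that replicates are separate animals, and between the Ptip_KO libraries the variation may be technical. The p-values cover only the variation among these samples. With 2 libraries against 2, the smallest two-sided p of an exact permutation test is 0.333, and the calls depend on variance estimates that limma moderates over all genes.

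**Figure D1:**
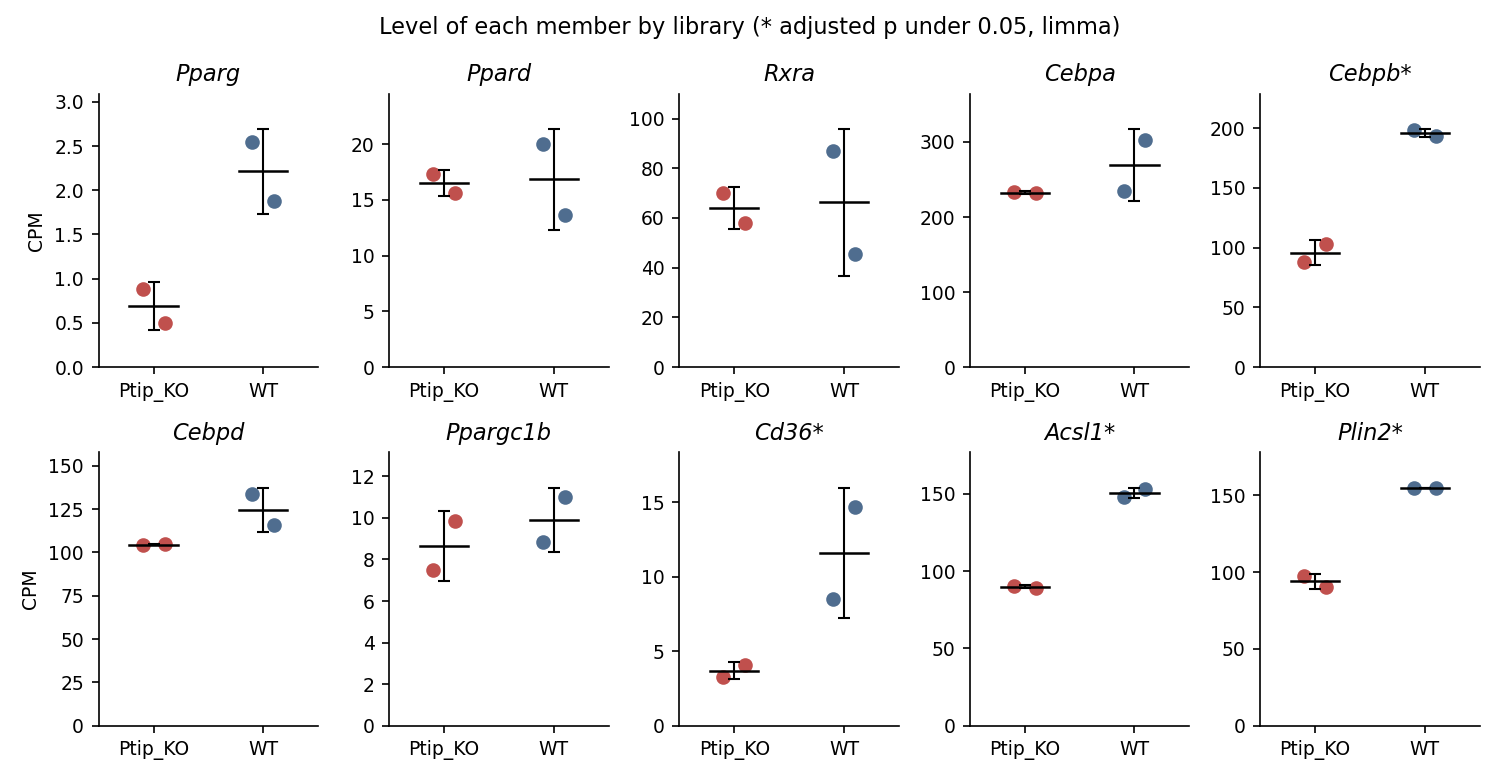
Level of each of the 10 members in CPM (y axis, from 0), with 1 point per library, a bar at the mean of 2 libraries and whiskers of 1 SD, Ptip_KO left of WT. Both Ptip_KO points lie under both WT points for 7 genes, and for Ppard, Rxra and Ppargc1b the groups overlap.

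By limma on log2(CPM + 1) with Benjamini-Hochberg adjustment over 12357 tested genes, 4 of the 10 members were called lower in Ptip_KO, where 3.86% of all tested genes were. As the members were chosen with earlier results known, the shares of all genes are given for scale only. None was called higher, where 2.43% of all tested genes were, and in either direction 6.29% were called. The count of members higher was also 0 at an unadjusted p under 0.05, by edgeR, which called 1.97% of all genes higher, and by DESeq2, which called 6.31%. Both Ptip_KO libraries lay under both WT libraries for 7 members, against 27.3% of tested genes, and above them for 0, against 27.7%. The median log2 fold change of the members was −0.48, with 9 of 10 below 0, and that of all tested genes was 0.0032. EdgeR on recovered reads called 3 members lower, where it called 3.37% of all genes, and DESeq2 called 5, where it called 9.11%. Pparg, which is in the counts of 7, 9 and 5, entered the test only through its WT libraries, so its fall was favoured in advance. Each library was also left out in turn. The log2 fold change then ran from −1.14 to −0.92 for Cebpb and from −0.76 to −0.71 for Acsl1. For Plin2 it ran from −0.77 to −0.66 and for Cd36 from −1.75 to −1.03.

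**Figure D2:**
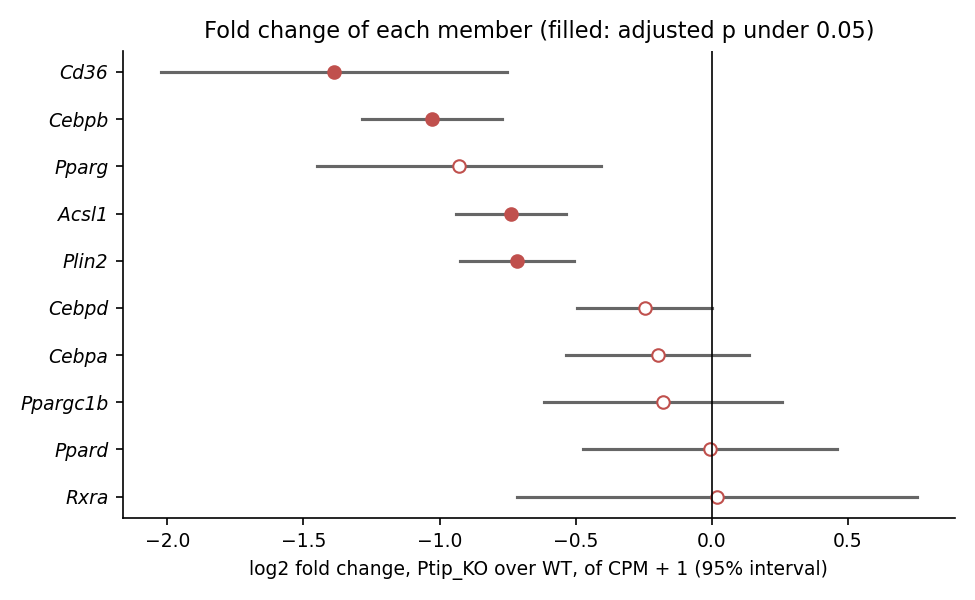
Log2 fold change of each member, Ptip_KO over WT on the log2(CPM + 1) scale (x axis), with its 95% interval from limma; filled points have an adjusted p under 0.05. Cd36 has the lowest value at −1.39 and Rxra sits at 0.018 with the widest interval of the uncalled genes.

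Among the receptors, Pparg was the least abundant member, with 0.880 and 0.4995 CPM in the Ptip_KO libraries, against 2.55 and 1.88 CPM in the WT libraries. Means were 0.690 ± 0.269 CPM in Ptip_KO, against 2.21 ± 0.477 CPM in WT (SD, n = 2 each). These values rest on 67 and 35 reads in Ptip_KO and on 188 and 148 reads in WT. Both Ptip_KO libraries lay under both WT libraries, and single Ptip_KO libraries had 0.196 to 0.469 of the level of single WT libraries. The log2 fold change came to −0.93 (SE 0.21, 95% interval −1.45 to −0.41), and its limma adjusted p of 0.0626 missed the threshold. Pparg entered the test only through the WT libraries, since both Ptip_KO libraries were under 1 CPM. A fall was therefore favoured over a rise in advance. Because the level is close to the added 1 CPM, this scale understates the ratio, and edgeR on the reads gave −1.67 (adjusted p = 0.0746). The gene was called lower by DESeq2 (adjusted p = 0.0106), without WT replicate 2 (0.0158) and with no filter on low genes (0.0488), but without Ptip_KO replicate 1 or 2 the adjusted p was 0.115 or 0.281. Pparg spans 115360951 to 115490399 on the plus strand of chromosome 6, and the counts do not separate its isoforms, which start at different promoters and include the fat cell form PPAR gamma 2.

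Ppard, which encodes the broadly expressed PPAR delta, had 17.3 and 15.7 CPM in Ptip_KO, against 20.02 and 13.7 CPM in WT. The Ptip_KO libraries lay between the WT libraries, and the log2 fold change was −0.0063 (95% interval −0.47 to 0.46; limma adjusted p = 0.988), a direction that turned when libraries were rescaled to a common sum (0.042) and without Ptip_KO replicate 2 or WT replicate 1. Per kilobase of annotated exon, Pparg made up 11.4% and 7.51% of the summed level of Pparg and Ppard in the Ptip_KO libraries, against 24.5% and 25.9% in the WT libraries. This difference in share of −15.7 percentage points separated the groups, at the smallest p that exact permutation allows here (two-sided, 0.333). Ppard (chromosome 17, 28232700 to 28301474) was thus the larger contributor to the PPAR transcripts in all 4 libraries.

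Rxra, which encodes the dimer partner RXR alpha, had 70.0 and 58.0 CPM in Ptip_KO, against 87.1 and 45.4 CPM in WT. Both Ptip_KO values lay inside the gap between the WT libraries, which differed widely from each other. The log2 fold change of 0.018 (95% interval −0.72 to 0.75; limma adjusted p = 0.980) became −0.44 without WT replicate 2 (adjusted p = 0.0580) and 0.48 without WT replicate 1 (adjusted p = 0.0502), and it also turned negative without Ptip_KO replicate 1, by edgeR and by DESeq2. The related gene Rxrb had 112 and 115 CPM in Ptip_KO, against 111 and 109 CPM in WT. Rxra spans 27676440 to 27762957 on chromosome 2.

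Ppargc1b, whose product PGC-1 beta co-activates PPAR gamma in mouse osteoclasts and drives mitochondrial genes, had 7.47 and 9.85 CPM in Ptip_KO, against 8.83 and 11.0 CPM in WT. The groups overlapped, and the log2 fold change was −0.18 (95% interval −0.62 to 0.26; limma adjusted p = 0.592). In the list of PGC-1 beta partners and mitochondrial biogenesis genes, 1 of 14 tested genes fell and 0 rose, with a median of −0.093 (0 rose at an unadjusted p under 0.05, by edgeR or by DESeq2). The one that fell was Cycs, which encodes cytochrome c, at 88.8 and 82.3 CPM in Ptip_KO, against 157 and 139 CPM in WT (log2 fold change −0.78, SE 0.10, limma adjusted p = 0.0165); near-identical pseudogene copies make its count uncertain. Citrate synthase, Cs, had 351 and 336 CPM in Ptip_KO, against 367 and 302 CPM in WT, and the ATP synthase subunit gene Atp5b had 1186 and 1094 CPM in Ptip_KO, against 1358 and 1178 CPM in WT. The groups overlapped for each.

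Among the C/EBP genes, Cebpb fell. It had 88.4 and 103 CPM in the Ptip_KO libraries, against 198 and 194 CPM in the WT libraries, so that single Ptip_KO libraries had 0.446 to 0.534 of the level of single WT libraries. Means were 95.8 ± 10.6 CPM in Ptip_KO, against 196 ± 3.25 CPM in WT (SD, n = 2 each). The log2 fold change came to −1.03 (SE 0.10, 95% interval −1.29 to −0.77; limma adjusted p = 0.00933), rank 112 of 12357 genes by p, and it was between −1.14 and −0.92 with each library left out, always past the threshold. C/EBP beta is induced by cytokines and growth signals and directs emergency granulocyte formation and macrophage genes. Cebpb is a gene of a single exon on chromosome 2 (167688915 to 167690418) whose span overlaps Tmem189 on the opposite strand. Tmem189 had 36.3 and 33.4 CPM in Ptip_KO, against 42.7 and 36.3 CPM in WT (limma adjusted p = 0.432), and whether counting used strand is not given in the sources used here.

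Cebpa, which encodes the C/EBP factor required for granulocyte and monocyte progenitors to form, had 234 and 231 CPM in Ptip_KO, against 235 and 303 CPM in WT. Both Ptip_KO libraries lay just under WT replicate 1 and well under WT replicate 2, and the log2 fold change was −0.20 (95% interval −0.54 to 0.14; limma adjusted p = 0.438). It was −0.017 without WT replicate 2 and −0.38 without WT replicate 1, so its size depends on that library. Cebpd, which encodes the inflammation-induced C/EBP delta, had 104 and 105 CPM in Ptip_KO, against 134 and 116 CPM in WT, with a log2 fold change of −0.25 (95% interval −0.50 to 0.0016; limma adjusted p = 0.213). Its groups did not overlap either. Cebpa lies on chromosome 7 (35119293 to 35121928) and Cebpd on chromosome 16 (15887286 to 15891031), where Spidr overlaps it on the opposite strand with 66.7 and 56.0 CPM in Ptip_KO, against 69.5 and 64.0 CPM in WT. The genes Gm45091 and Gm45244, opposite to Cebpa and Acsl1, were at or under 0.728 CPM in every library.

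Levels were also taken per kilobase of exon, to set different genes side by side. The length counts every annotated exon base of a gene, whichever transcripts are present, so comparisons between genes are approximate. The 3 C/EBP genes summed to 175 and 184 CPM per kilobase in Ptip_KO, against 257 and 275 in WT. Cebpb made up 33.5% and 37.2% of that sum in Ptip_KO libraries, against 51.3% and 46.9% in WT libraries. Cebpa made up 50.6% and 47.6% in Ptip_KO and 34.8% and 41.9% in WT, and Cebpd made up 15.9% and 15.2% in Ptip_KO and 13.9% and 11.2% in WT. Cebpa was thus the highest of the 3 in both Ptip_KO libraries and Cebpb in both WT libraries, although the WT libraries differed from each other by several percentage points. The share of Cebpb differed by −13.7 percentage points, with no overlap of the groups (exact permutation, two-sided p = 0.333, the smallest possible).

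**Figure D3:**
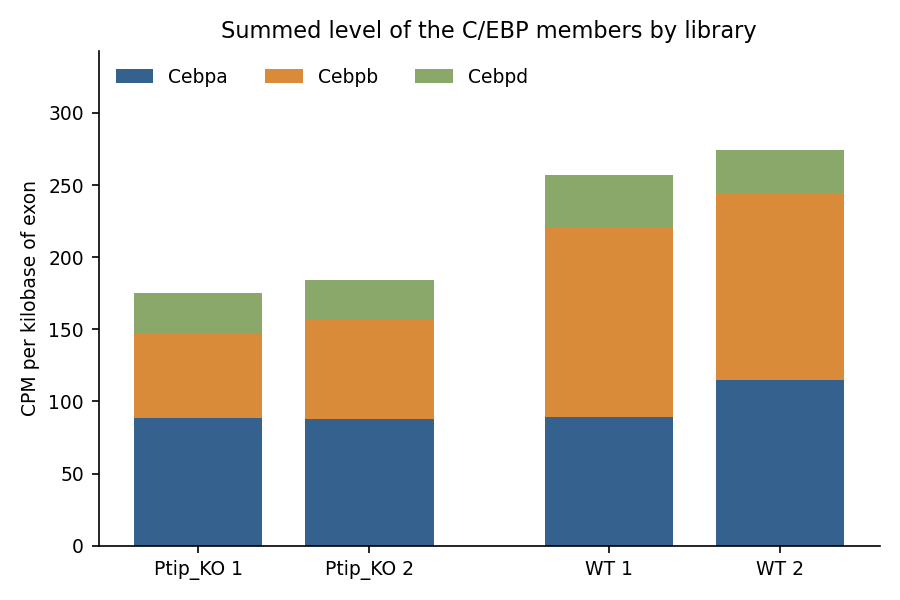
Stacked bars of the level of Cebpa, Cebpb and Cebpd in CPM per kilobase of exon (y axis, from 0), 1 bar per library with the Ptip_KO libraries at the left. The middle segment, Cebpb, is 58.8 and 68.7 in Ptip_KO and 132 and 129 in WT, and makes up most of the difference in height.

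Of the C/EBP relatives and partners, 0 of 10 tested genes were called by limma, edgeR or DESeq2, with a median log2 fold change of −0.026 and with 1 higher and 2 lower at an unadjusted p under 0.05. Without WT replicate 1, and likewise without WT replicate 2, 1 was called lower. Klf4, a transcription factor of monocytes, had 318 and 294 CPM in Ptip_KO, against 424 and 233 CPM in WT, with the Ptip_KO libraries between the WT libraries; it was the one called lower without WT replicate 2 (log2 fold change −0.47, adjusted p = 0.0331), and its direction turned without WT replicate 1 or Ptip_KO replicate 2 and when rescaled to a common sum. Atf4, a bZIP factor of the stress response that can pair with C/EBP proteins, had 210 and 240 CPM in Ptip_KO, against 230 and 217 CPM in WT. Cebpe, which acts late in neutrophil maturation, had 20.8 and 30.4 CPM in Ptip_KO, against 21.9 and 29.5 CPM in WT.

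The lipid genes gave 3 of the 4 calls. Acsl1 encodes a long-chain acyl-CoA synthetase that activates fatty acids, and had 90.6 and 89.1 CPM in Ptip_KO, against 148 and 153 CPM in WT. Replicates were close to each other and the groups far apart, with a log2 fold change of −0.74 (SE 0.081, 95% interval −0.94 to −0.54; limma adjusted p = 0.0114). Means were 89.9 ± 1.03 CPM in Ptip_KO, against 151 ± 3.38 CPM in WT (SD, n = 2 each). It was past the threshold under all 14 alternatives, with adjusted p up to 0.0409. Acsl1 spans 46471037 to 46536051 on chromosome 8. The other acyl-CoA synthetase genes Acsl3, Acsl4 and Acsl5 had log2 fold changes of 0.22, 0.32 and 0.060 and did not pass (limma adjusted p between 0.109 and 0.770).

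Plin2 encodes perilipin 2, the coat protein of lipid droplets in macrophages and many other cells, and had 97.5 and 90.6 CPM in Ptip_KO, against 155 and 155 CPM in WT. The WT libraries were nearly equal, both Ptip_KO libraries lay far under them, and the log2 fold change was −0.72 (SE 0.085, 95% interval −0.93 to −0.50; limma adjusted p = 0.0139). Means were 94.1 ± 4.81 CPM in Ptip_KO, against 155 ± 0.0954 CPM in WT (SD, n = 2 each). Leaving out Ptip_KO replicate 2 gave 0.0554, and the value was under the threshold in the other 13 alternatives. Plin3, another droplet coat gene, had 79.4 and 73.7 CPM in Ptip_KO, against 79.2 and 68.4 CPM in WT. Plin2 spans 86648386 to 86670060 on the minus strand of chromosome 4.

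Cd36 encodes a scavenger receptor that takes up fatty acids and oxidised lipoprotein, and had 3.28 and 4.08 CPM in Ptip_KO, against 8.52 and 14.7 CPM in WT. The groups did not overlap, but the WT libraries differed widely, with means of 3.68 ± 0.564 CPM in Ptip_KO, against 11.6 ± 4.36 CPM in WT (SD, n = 2 each). Its log2 fold change was −1.39 (SE 0.26, 95% interval −2.02 to −0.75; limma adjusted p = 0.0397), the largest in size of the members on this scale. By edgeR it was −1.65 for Cd36 and −1.67 for Pparg, and by DESeq2 −1.66 for Cd36 and −1.68 for Pparg. For Cd36 the adjusted p was 0.0706 without Ptip_KO replicate 1, 0.0572 by edgeR, 0.0757 when rescaled to a common sum, 0.0582 with median-of-ratios factors and 0.0510 with a pseudocount of 5 CPM, and the log2 fold change was −1.03 without WT replicate 2 and −1.75 without WT replicate 1. Cd36 lies on the minus strand of chromosome 5 at 17781690 to 17888801.

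In level per kilobase, the order in Ptip_KO was Cebpa, Cebpb, Cebpd, Plin2, Rxra, Acsl1, Ppard, Ppargc1b, Cd36 and Pparg, from 88.2 to 0.234 CPM per kilobase. In WT it was Cebpb, Cebpa, Plin2, Cebpd, Acsl1, Rxra, Cd36, Ppargc1b, Ppard and Pparg, from 130 to 0.750 CPM per kilobase. The neighbours Ppard and Ppargc1b overlapped in both groups, as did Acsl1 and Rxra, and Cd36 and Ppargc1b, in WT, so their order is not firm. All ranks also rest on annotated exon lengths, so other close ranks are approximate too.

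**Figure D4:**
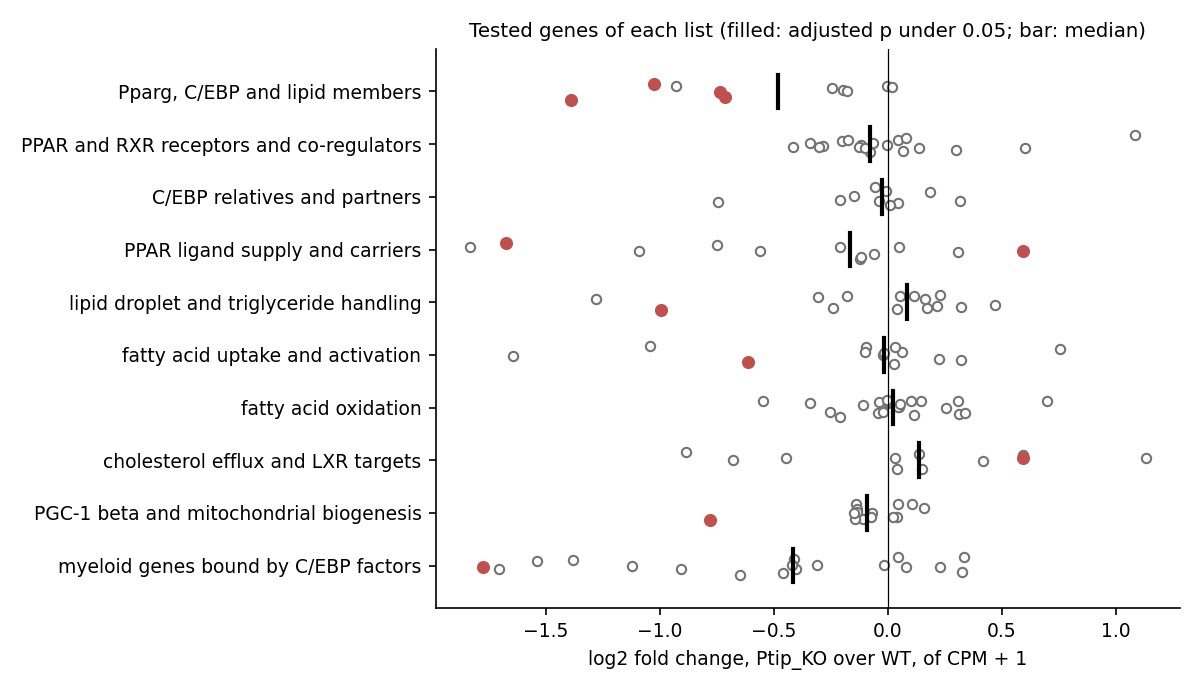
Log2 fold change, Ptip_KO over WT on the log2(CPM + 1) scale (x axis), of each tested gene in the member set and in 9 related lists (rows), with the list median as a bar and called genes filled. The member set has 4 filled points, all left of 0, and no other row has more than 2.

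The calls in the wider pathway are set beside the 6.29% of all tested genes that were called in either direction. That share is of limma calls, and it does not apply to counts of any list with a library left out. DESeq2 called 9.11% of all tested genes lower and 6.31% higher. At an unadjusted p under 0.05 the share of all genes was far larger. Abhd5, at an unadjusted limma p of 0.0496, ranked 2925 of 12357 genes, and Cebpd, at 0.0511, ranked 2960. Over all genes, more were called without either WT library and fewer without either Ptip_KO library. In the list of PPAR and RXR receptors and co-regulators, 0 of 19 tested genes passed by limma and by edgeR, with a median log2 fold change of −0.080 and with 2 higher and 0 lower at an unadjusted p under 0.05. DESeq2 called 1 higher, 2 were higher without WT replicate 1, 2 higher and 2 lower without WT replicate 2, and 1 higher without Ptip_KO replicate 1. The co-repressor gene Ncor1 had 367 and 364 CPM in Ptip_KO, against 392 and 381 CPM in WT, and its complex partner Tbl1xr1 had 253 and 222 CPM in Ptip_KO, against 268 and 230 CPM in WT. Ncoa6, a PPAR co-activator that sits in the same complexes as PTIP, had 24.9 and 19.1 CPM in Ptip_KO, against 28.5 and 20.03 CPM in WT (limma adjusted p = 0.753). In the PTIP complex list, 1 of 11 tested genes fell, Paxip1 itself (log2 fold change −4.29, limma adjusted p = 0.000383), and without WT replicate 1 or 2 the count was 2. The methyltransferase gene Kmt2c had 107 and 89.7 CPM in Ptip_KO, against 118 and 99.7 CPM in WT, and the core subunit gene Wdr5 had 98.5 and 91.5 CPM in Ptip_KO, against 111 and 110 CPM in WT.

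Among genes that supply or carry PPAR ligands, 1 of 12 tested rose and 1 fell, with a median of −0.17. Lipa, the lysosomal acid lipase that frees fatty acids from stored esters, rose to 182 and 162 CPM in Ptip_KO, against 116 and 111 CPM in WT (log2 fold change 0.59, SE 0.095, limma adjusted p = 0.0274), and lost the call without Ptip_KO replicate 1 (0.140) or 2 (0.0547). Mgll, the monoacylglycerol lipase, fell to 1.68 and 2.63 CPM in Ptip_KO, against 6.78 and 11.8 CPM in WT (log2 fold change −1.68, SE 0.28, limma adjusted p = 0.0305), with 0.0514 by edgeR and 0.0626 when rescaled to a common sum. Fabp4, a carrier of fatty acids and a strong PPAR gamma target, was under the filter at 0.302 and 0.114 CPM in Ptip_KO, against 0.895 and 0.900 CPM in WT. In this list 4 genes were lower without WT replicate 1, 3 without WT replicate 2 and 3 by DESeq2, 2 without Ptip_KO replicate 1, and 0 rose without Ptip_KO replicate 1 or 2.

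Of 14 tested lipid droplet and triglyceride genes, 1 fell and 0 rose by limma and by edgeR (2 were higher and 3 lower at an unadjusted p under 0.05, and 1 higher and 2 lower by DESeq2), with a median of 0.083. Dgat2, which makes triglyceride, fell to 7.65 and 6.84 CPM in Ptip_KO, against 14.5 and 16.4 CPM in WT (log2 fold change −0.996, SE 0.13, limma adjusted p = 0.0165). Soat1, which esterifies cholesterol, had 408 and 362 CPM in Ptip_KO, against 370 and 320 CPM in WT, and the lipid phosphatase gene Lpin2 had 76.1 and 86.9 CPM in Ptip_KO, against 66.1 and 73.9 CPM in WT. Without WT replicate 1 or 2, 3 genes of this list were lower.

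For fatty acid uptake and activation, 1 of 13 tested genes fell and 0 rose by limma and by edgeR (2 were higher and 3 lower at an unadjusted p under 0.05, and 1 higher and 2 lower by DESeq2), with a median of −0.018. Slc27a4, a fatty acid transport protein with acyl-CoA synthetase activity, fell to 33.5 and 32.6 CPM in Ptip_KO, against 47.8 and 54.5 CPM in WT (log2 fold change −0.61, SE 0.10, limma adjusted p = 0.0299). The call was lost without Ptip_KO replicate 1 (0.0942) or 2 (0.114) and when rescaled to a common sum (0.0641), and 3 genes were lower without WT replicate 1 or 2. Acsl5 had 267 and 240 CPM in Ptip_KO, against 254 and 232 CPM in WT, and Got2, a mitochondrial aminotransferase that also binds fatty acids, had 232 and 220 CPM in Ptip_KO, against 246 and 199 CPM in WT.

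Fatty acid oxidation, a process that PPAR receptors induce in other tissues, had 0 of 22 tested genes called by limma and by edgeR, with a median log2 fold change of 0.022. At an unadjusted p under 0.05, 5 were higher and 2 lower, and DESeq2 called 4 higher and 1 lower; without WT replicate 1, 1 was lower, and without WT replicate 2, 1 was higher and 2 were lower. Hadha, a subunit of the trifunctional protein, had 212 and 205 CPM in Ptip_KO, against 204 and 198 CPM in WT, and Ucp2, a mitochondrial carrier, had 540 and 480 CPM in Ptip_KO, against 714 and 585 CPM in WT (limma adjusted p = 0.202; 0.0353 by DESeq2 and 0.0433 without WT replicate 2).

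Cholesterol efflux and LXR target genes had a median of 0.14, with 1 of 11 tested genes higher and 0 lower by limma and by edgeR. Mylip, an LXR target that marks the LDL receptor for degradation, rose to 38.1 and 36.9 CPM in Ptip_KO, against 23.8 and 25.2 CPM in WT (log2 fold change 0.59, SE 0.093, limma adjusted p = 0.0264). It lost the call without Ptip_KO replicate 1 (0.131) or 2 (0.101). Scd2, a fatty acid desaturase, had 246 and 267 CPM in Ptip_KO, against 185 and 199 CPM in WT (limma adjusted p = 0.0624; 0.00261 by DESeq2 and 0.0289 without WT replicate 2). The cholesterol exporter Abca1 had 23.9 and 24.4 CPM in Ptip_KO, against 7.94 and 13.8 CPM in WT (limma adjusted p = 0.0540), and the sterol carrier Npc2 had 546 and 489 CPM in Ptip_KO, against 500 and 442 CPM in WT. The log2 fold change was below 0 for 3 of the 11 tested genes. Among these, Apoe had 43.4 and 30.3 CPM in Ptip_KO, against 82.4 and 55.8 CPM in WT (limma adjusted p = 0.0920). By DESeq2, 4 genes were higher and 2 lower, 2 were lower at an unadjusted p under 0.05, and without WT replicate 1 or 2, 3 were higher.

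Among myeloid genes known to be bound by C/EBP factors, 1 of 18 tested fell and 0 rose by limma and by edgeR (1 higher and 6 lower at an unadjusted p under 0.05, and 1 higher and 2 lower by DESeq2), with a median of −0.42. Id2, an inhibitor of helix-loop-helix factors, fell to 7.57 and 7.92 CPM in Ptip_KO, against 33.7 and 24.9 CPM in WT (log2 fold change −1.78, SE 0.16, limma adjusted p = 0.00673). The granule enzyme gene Mpo had 7772 and 8481 CPM in Ptip_KO, against 5885 and 8162 CPM in WT, and lysozyme, Lyz2, had 5168 and 4004 CPM in Ptip_KO, against 9364 and 5438 CPM in WT (limma adjusted p = 0.268; 0.0167 without WT replicate 2). The count of lower genes was 4 when Ptip_KO replicate 1 was left out, 2 for Ptip_KO replicate 2, 7 for WT replicate 1, 5 for WT replicate 2 and 2 by DESeq2.

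Markers of other cells moved with these genes, and in bulk RNA fewer cells of a type and less RNA per cell cannot be told apart. Of 14 tested monocyte and macrophage markers, 6 fell and 0 rose by limma and by edgeR. At an unadjusted p under 0.05, and likewise by DESeq2, 8 were lower and 1 was higher, and without WT replicate 2, 8 were lower. The abundant monocyte markers were not called: Csf1r, Cd68, Cx3cr1 and Ccr2 had log2 fold changes of 0.33, 0.12, 0.081 and −0.055 (limma adjusted p between 0.149 and 0.927), and Ly6c2 one of −0.58 (0.0768). The F4/80 gene Adgre1 fell to 8.67 and 6.79 CPM in Ptip_KO, against 90.5 and 51.7 CPM in WT. The complement genes C1qa, C1qb and C1qc, made by tissue macrophages, were at 0.143 to 0.407 CPM in Ptip_KO, against at 3.03 to 3.79 CPM in WT. All of these complement genes are among the 6 that fell. They passed the filter only through the WT libraries, so they could only be called lower. The sum over the list was 3620 and 3078 CPM in Ptip_KO, against 4429 and 3474 CPM in WT. Tissue macrophages also express Pparg, Cd36 and Plin2, and the part of these markers in those results was not tested.

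Red cell markers fell in 10 of 15 tested genes and rose in none by limma, edgeR, DESeq2 or at an unadjusted p under 0.05. Their sum was 957 and 1285 CPM in Ptip_KO, against 2403 and 5205 CPM in WT, an order of the 4 libraries that Cd36, which erythroid precursors also express, shared. Hemgn, Tfrc and Slc4a1 had log2 fold changes of −1.83, −0.65 and −1.503 (limma adjusted p between 0.0146 and 0.0197), and Tfrc lost the call without Ptip_KO replicate 1 (0.0795) or 2 (0.0508). The count was 6 by edgeR and 13 by DESeq2, and leaving out WT replicate 1 or 2 gave 14 or 13. The part of red cell RNA in the fall of Cd36 was not tested.

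Of 15 neutrophil markers, 1 fell and 0 rose by limma and by edgeR (0 higher and 9 lower at an unadjusted p under 0.05). The median log2 fold change was −0.91, with 14 of 15 below 0. The summed level was 10198 and 10653 CPM in Ptip_KO, against 9444 and 14174 CPM in WT. Most of that sum was Mpo, at 7772 and 8481 CPM in Ptip_KO, against 5885 and 8162 CPM in WT. Padi4, a histone-modifying enzyme of neutrophils, had 15.9 and 12.9 CPM in Ptip_KO, against 46.6 and 58.1 CPM in WT (log2 fold change −1.79, limma adjusted p = 0.00638), while Elane, the elastase gene, had 797 and 955 CPM in Ptip_KO, against 1008 and 1338 CPM in WT (0.231 by limma, 0.0318 without WT replicate 1). The count of lower genes was 7 when Ptip_KO replicate 1 was left out, 2 for Ptip_KO replicate 2, 11 for WT replicate 1, 5 for WT replicate 2 and 4 by DESeq2. Dendritic cell markers fell in 4 of 8 tested genes and rose in 1: Itgax, Zbtb46 and H2-Aa had log2 fold changes of −1.42, −1.70 and −1.86, and Tcf4 of 0.79 (limma adjusted p between 0.0107 and 0.0218). The other gene that fell, Flt3, is also counted among the osteoclast progenitor markers below. Their sum was 245 and 246 CPM in Ptip_KO, against 387 and 322 CPM in WT. The part of both cell types in the fall of Cebpb was not tested.

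Most fat cell markers were near 0. Of the pair that was tested, Lipe was not, while Slc2a4 was low and passed the filter only through the WT libraries. Adipoq, the defining adipocyte hormone gene, was at 0.0263 and 0.0714 CPM in Ptip_KO, against at 0.0136 and 0.165 CPM in WT, and Retn and Cfd stayed at or under 0.393 CPM in every library. Of 12 genes in the list, 7 were in the table and 2 were tested, of which 0 passed by limma and by edgeR (1 lower at an unadjusted p under 0.05, by DESeq2 and without WT replicate 1). These were Lipe, a lipase that many cells express, with 62.7 and 65.3 CPM in Ptip_KO, against 56.6 and 56.9 CPM in WT, and the glucose transporter gene Slc2a4, with 0.486 and 0.785 CPM in Ptip_KO, against 1.85 and 3.35 CPM in WT (limma adjusted p = 0.0655; 0.00324 by DESeq2 and 0.00307 without WT replicate 1). Among B cell markers 1 of 2 tested genes rose, Cd79b, at 52.4 and 49.1 CPM in Ptip_KO, against 27.0 and 34.8 CPM in WT (limma adjusted p = 0.0454; 0.0663 by edgeR, 0.0718 when rescaled to a common sum, 0.0620 with median-of-ratios factors, and 0.133 and 0.0836 without Ptip_KO replicates 1 and 2), and Cd79a had 2.13 and 1.499 CPM in Ptip_KO, against 1.13 and 4.54 CPM in WT (limma adjusted p = 0.743; lower at 0.0152 without WT replicate 1). Among T cell markers 0 of 2 tested genes passed by limma and edgeR (1 lower at an unadjusted p under 0.05 and by DESeq2). Thy1 had 3.38 and 3.68 CPM in Ptip_KO, against 4.23 and 3.49 CPM in WT. Lck had 0.473 and 0.828 CPM in Ptip_KO, against 1.45 and 2.36 CPM in WT (adjusted p 0.110 by limma and 0.0496 by DESeq2). Lck also passed the filter only through the WT libraries.

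Of 9 tested markers of osteoclast progenitors, 3 fell and 0 rose by limma and by edgeR (1 higher and 3 lower at an unadjusted p under 0.05 and by DESeq2). Flt3 is also in the dendritic cell list and Csf1r in the monocyte and macrophage list, so the counts of these lists overlap. The stem cell factor receptor gene Kit fell to 14.4 and 16.1 CPM in Ptip_KO, against 49.5 and 73.1 CPM in WT, and the receptor gene Flt3 fell to 42.8 and 34.5 CPM in Ptip_KO, against 67.6 and 77.8 CPM in WT. Acp5, the tartrate-resistant acid phosphatase gene of osteoclasts, fell by 1.002 on the log2 scale (limma adjusted p = 0.0228), with 0.0721 without Ptip_KO replicate 1 and 0.0507 when rescaled to a common sum. Nfatc1, the master transcription factor of osteoclasts, had 88.1 and 79.2 CPM in Ptip_KO, against 81.1 and 60.4 CPM in WT, and Ctsk was at or under 0.393 CPM in every library, this being the collagen-degrading protease of mature osteoclasts.

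**Figure D5:**
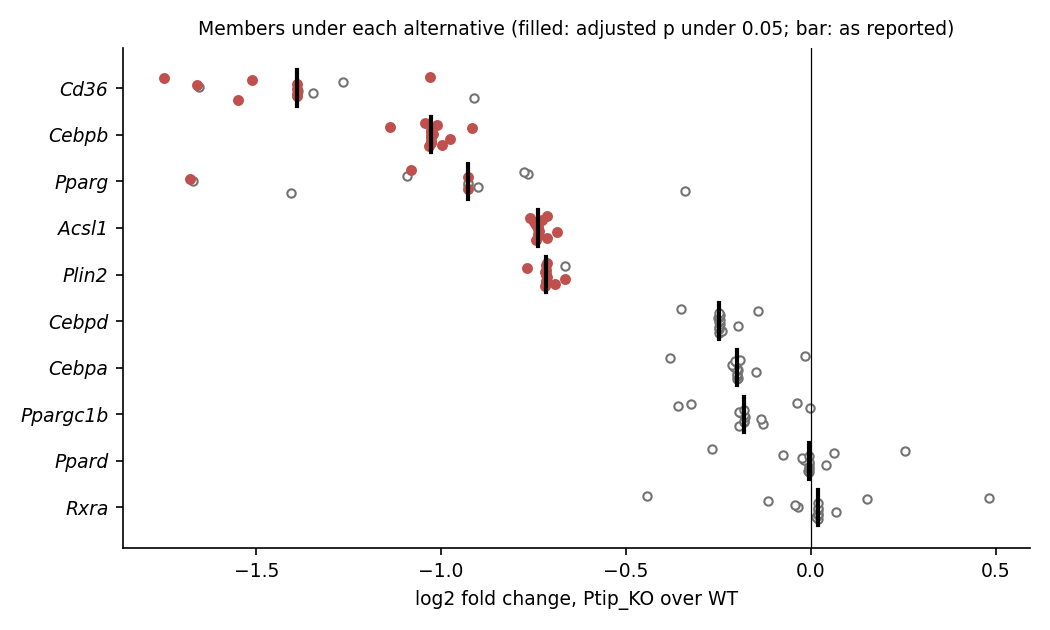
Log2 fold change of each member, Ptip_KO over WT (x axis), under each of the 14 alternative settings (points, filled where the adjusted p is under 0.05) and as reported (bar). Cebpb and Acsl1 are filled in all 14, Plin2 in 13 and Cd36 in 9, Pparg in 4 of the 13 that gave a value, and the points of Ppard and Rxra fall on both sides of 0.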

How the data were processed

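RNA of sorted osteoclast progenitors was made into TruSeq Stranded mRNA libraries, per the labels' protocols. TopHat2 2.0.10, HTSeq 0.6.0, edgeR 3.8.6 and mm10 are named, without roles, per the submitters' processing notes. The deposited signal is a scaled CPM value per gene, and library sums ran from 964731 to 1055133. All values (100%) were whole multiples of a library's value of 1 read, within 0.01 read, so reads were recovered. The 4 columns were matched to samples by the samples' descriptions; the WT library titled 2 is numbered 3 in its description and column, and the title's number is used here. In all, 0 columns of other samples were present.

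A gene entered the test if 2 or more libraries reached 1 CPM (12357 genes). The test was limma 3.58.1 (R 4.3.3) applied to log2(CPM + 1) for genotype alone, two-sided, using a prior variance that follows the mean; Benjamini-Hochberg values under 0.05 were called. This scale understates changes of low genes. Alternatives were edgeR 4.0.16 (quasi-likelihood) and DESeq2 1.42.0 on recovered reads, other pseudocounts, filters, scalings and priors, the replicate block and each library left out. Positions and exon lengths are from GENCODE M21 on GRCm38, and 18249 genes had a symbol. The members, the 18 other lists and the rule for named genes were chosen with earlier results of these data known. The rule took up to 4 called genes per list by smallest p, the 2 highest genes where fewer than 2 passed, Paxip1, and genes overlapping a member; a gene it named is not reported here. Csf1r, Cd68, Cx3cr1, Ccr2, Ly6c2, Cd3e, Xist, Ddx3y, Rxrb, Ncoa6, Cebpe, Acsl3, Acsl4, Plin3, Fabp4, Abca1, Apoe, Nfatc1, Ctsk, Itgam, Adipoq, Retn and Cfd were named after their values were seen. Replicates differed beyond sampling noise, at a chi-square of 38.2 (Ptip_KO) and 82.1 (WT) for each degree of freedom. Fits were tested on simulated data.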

Additional observations from a re-analysis of the deposited data

How the results depend on the processing

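Each result was recomputed under 14 alternatives; where 1 library was left out, the lone library of a group was assumed to vary like the other group. The number of genes called higher was 300 and of genes called lower 477. DESeq2 called 780 higher and 1126 lower, and without single libraries 113 to 700 were higher and 339 to 920 lower. The number of members called lower was 3 to 5 under every alternative and the number called higher was 0. With the replicate number as a block, 691 genes were higher and 1030 lower, 5 members were called lower, and Pparg had an adjusted p of 0.0222. The numbers were not used as pairs, because only the numbering links the samples. Also, 1 WT library has the number 2 in its title but 3 in its description. Deviations from the group means correlated with r = 0.332 between libraries with equal title numbers. With 2 libraries in each group, the value between the others, r = −0.332, is its negative by construction. This correlation does not decide whether the samples were paired. Genes that changed sign were not past the threshold as reported: Ppard was 0.042 and Klf4 0.0095 when rescaled to a common sum, and Rxra was −0.036 by edgeR and −0.042 by DESeq2, on the log2 scale. Without single libraries, log2 fold changes ran from −0.27 to 0.25 for Ppard, −0.44 to 0.48 for Rxra, −0.18 to 0.040 for Tbl1xr1, −0.47 to 0.39 for Klf4, −0.089 to 0.10 for Atf4, −0.015 to 0.14 for Acsl5, −0.12 to 0.18 for Got2, −0.096 to 0.19 for Cs, −0.0076 to 0.46 for Mpo, −0.99 to 0.40 for Cd79a and −0.21 to 0.013 for Thy1. The causes were not tested. Pparg gave no value with a filter at 5 CPM. At 35 to 188 reads a library, Pparg is the member whose depth limits it most.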
